A study of Mus musculus with 12 samples.

Results

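The genes described are Tspan7, Nefl, Tceal7, Bace2 and Alox5, 5 genes outside the contractile apparatus chosen by their probe signals, which were far brighter on siRNA arrays than on negative control arrays. They are 5 of 32451 genes or unmatched accessions on the arrays, and 6 of 39429 probes carry their accessions. Their siRNA and negative control signals chose them, so values in that contrast are given as a description with no test.

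The cells were C2C12, an established line of mouse myoblasts, taken 72 h after transfection and hybridised to one-colour arrays of 4 groups of 3. The groups were labelled negative control, pcDNA3.1 (a mammalian expression plasmid), pcDNA3.1-MEG3 and siRNA, and the titles name the last 2 MEG3 overexpression and knockdown. The titles call the pcDNA3.1 group pat1, which they do not explain. Meg3 is a long noncoding RNA. What the negative control contained, which sequence the siRNA held and whether replicates were separate cultures are not given in the sources used here, so the p-values measure a spread that may be only technical. Replicates 1 and 3 of each group differed by less than spot noise and were averaged, which left 2 samples a group and 8 in all. In the negative control they were separate arrays of the same scan, at 0.903 of spot noise. In the plasmid groups replicate 2 also differed from replicates 1 and 3 by less than spot noise (0.910 to 0.966 of it), though it was kept as a sample of its own. Those groups may hold 1 sample each, and under that reading most calls in every comparison were lost. Its gene counts are given with the other settings near the end.

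The arrays stood apart in ways that touch these genes. The siRNA arrays had 61.7 to 68.4% of probes well above background, the scanner flag for a signal clearly over the local background, against 69.2 to 75.9% on the others. The 75th percentile of signal lay between 1168 and 1440.2 on all arrays except the 3 pcDNA3.1-MEG3 arrays at 1501 to 1601 and negative control replicate 2 at 2266. The brightest Meg3 probe, A_51_P455997, was well above background on all 3 pcDNA3.1 arrays at 236 to 276 units. It was at 6.58 to 16.5 units on arrays labelled pcDNA3.1-MEG3, none of them well above background, which goes against that label, and on 0 of 3 siRNA arrays at 5.47 to 10.8 units. Only 1 of 3 negative control arrays detected it, so knockdown could not be checked. The negative control, the plasmid groups and siRNA were read in separate scans, so scan and group cannot be told apart in any comparison other than the plasmid one. All 8 myoblast markers listed were detected on at least 1 array. Their summed scaled level was 57.5 to 59.6 on the siRNA arrays and 22.7 to 26.3 on the others. Such a sum is weighted towards the brightest markers and does not stand for each of them.

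Tspan7 encodes a tetraspanin, a membrane-spanning protein that gathers partners in the cell membrane and is known for its part at synapses. Alox5 encodes arachidonate 5-lipoxygenase, which starts leukotriene synthesis with the help of the Alox5ap protein and is best known in myeloid cells. Nefl encodes the light neurofilament subunit, an intermediate filament protein of axons. Tceal7 encodes a small nuclear protein of the Tceal and Bex family and has been reported to restrain proliferation of mouse myoblasts. Bace2 encodes an aspartyl protease of the cell membrane, the paralog of the beta-secretase Bace1.

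Promoter sequence was at hand for Alox5, Tspan7 and Tceal7, and it is shown because these genes were bright together. Each run holds 250 bases before and 50 after the RefSeq gene start in GRCm38.p6, read along the gene's strand. Alox5 lies on the minus strand (chr6:116461129-116461428), Tspan7 on the plus strand (chrX:10484866-10485165) and Tceal7 on the plus strand (chrX:136223791-136224090). Capitals mark E-boxes (CANNTG) and M-CAT letters (CATTCC), found by a search of both strands.
Alox5: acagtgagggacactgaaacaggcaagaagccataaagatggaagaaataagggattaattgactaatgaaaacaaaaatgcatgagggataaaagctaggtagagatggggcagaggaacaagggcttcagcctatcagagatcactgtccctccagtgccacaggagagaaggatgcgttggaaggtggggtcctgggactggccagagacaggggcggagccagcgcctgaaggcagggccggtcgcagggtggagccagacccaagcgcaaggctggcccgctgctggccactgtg
Tspan7: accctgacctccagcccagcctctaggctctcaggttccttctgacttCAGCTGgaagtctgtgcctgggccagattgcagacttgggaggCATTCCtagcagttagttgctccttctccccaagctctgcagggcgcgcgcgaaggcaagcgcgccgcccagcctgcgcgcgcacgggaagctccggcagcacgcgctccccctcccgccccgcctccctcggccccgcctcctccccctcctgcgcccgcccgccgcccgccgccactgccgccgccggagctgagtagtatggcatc
Tceal7: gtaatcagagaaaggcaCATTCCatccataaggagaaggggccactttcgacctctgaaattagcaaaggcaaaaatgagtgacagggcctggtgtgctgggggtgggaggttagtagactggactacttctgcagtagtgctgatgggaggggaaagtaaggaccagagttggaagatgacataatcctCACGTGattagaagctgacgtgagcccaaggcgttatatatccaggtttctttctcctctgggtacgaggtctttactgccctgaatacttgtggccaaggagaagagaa
The Tspan7 window held CAGCTG, an E-box by its letters, with its first base at position -202 from the gene start, and CATTCC at -159. The Tceal7 window held CATTCC at -233 and the E-box CACGTG at -60. The Alox5 window held none of the letters searched. An E-box stood in 72.3% of all 32851 promoter windows, CAGCTG in 16.3% and CATTCC in 14.7%. TATAAA (in 13.6% of windows), the interferon response core GAAANNGAA (8.56%), the MEF2 box (3.19%) and the CArG box (1.63%) matched in none of the 3. A match here describes letters and does not show a bound factor. In base composition the 3 windows had little in common. The Tspan7 window was 70.3% G or C with 27 CpG sites, that of Alox5 55.7% with 7, and that of Tceal7 48.7% with 5. The median window was 52.7% G or C with 7 CpG sites.

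Tspan7 was near the background of the scanner everywhere but on siRNA arrays, where it was bright. Its only probe, A_55_P2047275, read 17.6, 15.5 and 11.9 units on negative control replicates 1, 2 and 3, and 1 of the 3 was well above background. It read 11.4, 19.5 and 9.85 units with pcDNA3.1, all not well above background, and 18.2, 11.05 and 11.5 units with pcDNA3.1-MEG3, of which 1 was. On siRNA replicates 1, 2 and 3 it read 3595, 3752 and 3513 units. The siRNA arrays stood far above the other 9, which overlapped one another. Scaled to each array's 75th percentile, the difference from the negative control was 8.39 on the log2 scale (SE 0.36, n = 2 samples a group), which came to at least 299-fold because most control values were bounds. Such bounds set the dim group at the lowest signal called well above background on each array, or at its own signal where that was higher. In RNA from whole cultures, more RNA per cell and more cells that hold the RNA cannot be told apart. Against both plasmid groups the difference was 8.35, at least 284-fold.

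Alox5, which was well above background on all 12 arrays, was the one gene here with a measured low level in all 3 groups other than siRNA. Probe A_51_P247249 read 17.97, 26.8 and 41.5 units on negative control replicates 1, 2 and 3. It read 31.8, 26.9 and 32.1 units with pcDNA3.1 and 27.0, 29.8 and 33.6 units with pcDNA3.1-MEG3. Its siRNA signals were 3462, 2832 and 3338 units. The 3 low groups overlapped, while the siRNA arrays lay far higher. The scaled level was 157-fold that of the negative control (log2 difference 7.30, SE 0.32, n = 2) and 126-fold that of the plasmid groups (6.98).

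**Figure D1:**
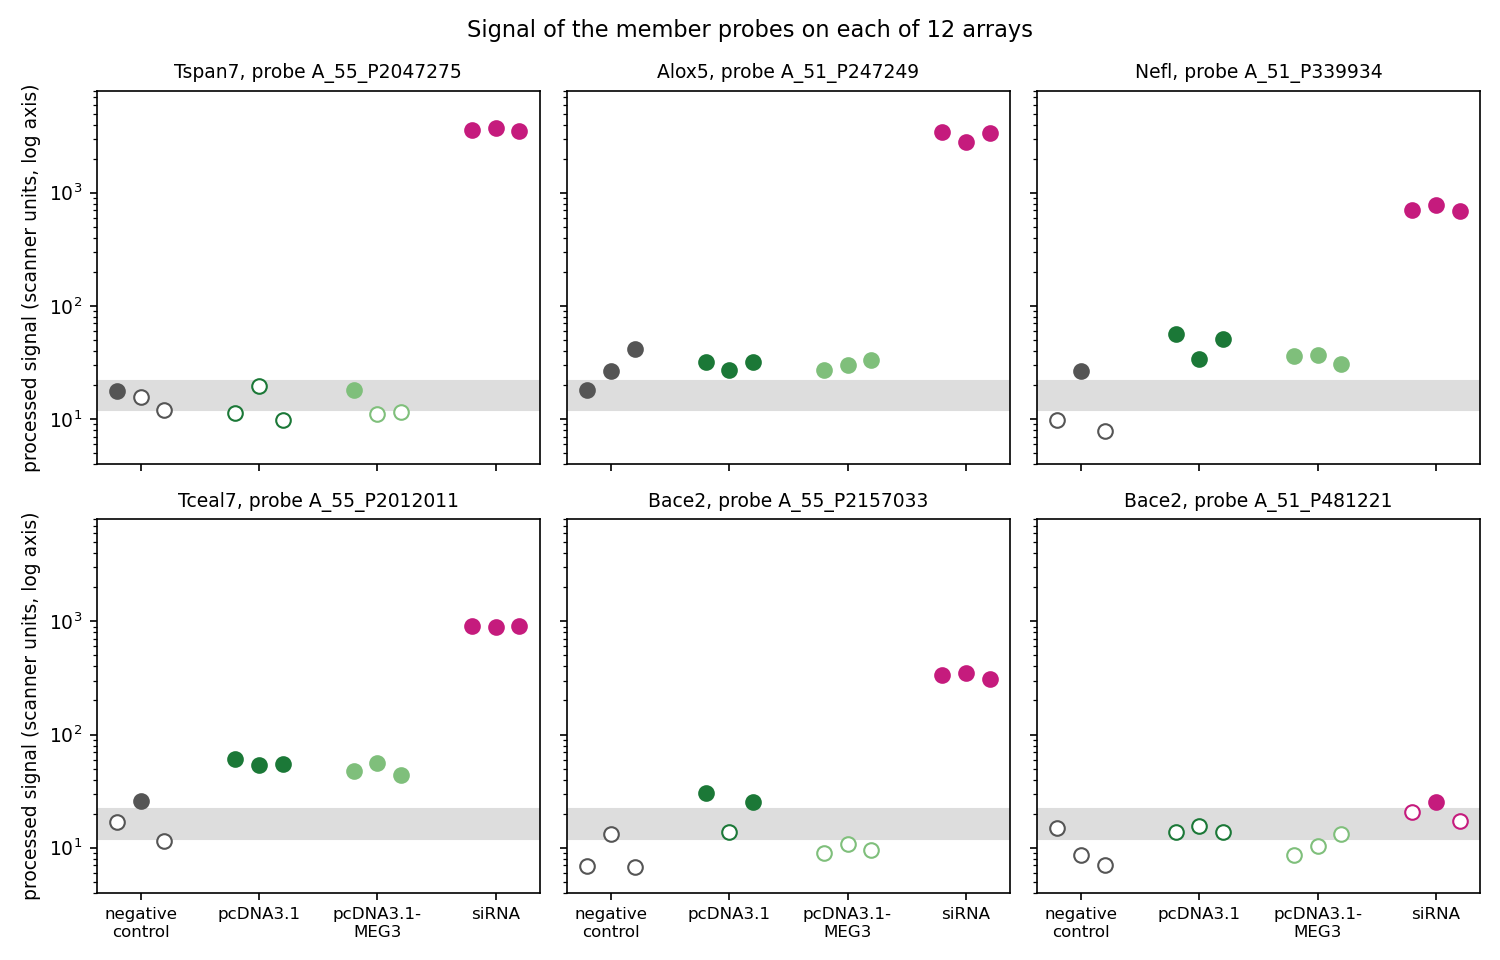
Processed signal in scanner units on a log axis for the 6 probes on 12 arrays, 3 points a group in replicate order. Filled points were well above background, open points were not, and the grey band spans the lowest such signals of the arrays (12.1 to 21.8 units). The siRNA points stand above the others on all panels, by little for Bace2 probe A_51_P481221.

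Nefl was lowest in the negative control, higher in both plasmid groups and highest with siRNA. Probe A_51_P339934 read 9.89, 26.5 and 7.89 units on negative control replicates 1, 2 and 3, with replicate 2 alone well above background. It read 56.5, 33.7 and 50.5 units with pcDNA3.1 and 35.9, 37.0 and 30.6 units with pcDNA3.1-MEG3, well above background on each. The siRNA signals were 703, 784 and 683 units. All 6 plasmid arrays were above all 3 negative control arrays and below all 3 siRNA arrays. The negative control and siRNA arrays chose the gene, which favours this order. It is described and not tested, and the share of all genes with it was not counted. The siRNA difference was 6.05 from the negative control (log2, SE 0.33, n = 2), at least 50.6-fold, and 4.53 from the plasmid groups, or 23.0-fold. Scans differ between these groups. Between pcDNA3.1 and the negative control 17.9% of all genes were called (11.3% higher, 6.64% lower). Between pcDNA3.1-MEG3 and the negative control 14.1% were called (7.52% higher, 6.6% lower). Nearly all of these calls were lost with each plasmid group as 1 sample. For Nefl, pcDNA3.1 exceeded the negative control at least 2.56-fold and pcDNA3.1-MEG3 at least 1.89-fold.

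Tceal7 followed the same order of groups. Probe A_55_P2012011 read 16.9, 25.6 and 11.6 units on negative control replicates 1, 2 and 3, and only replicate 2 was well above background. It read 60.7, 53.9 and 54.6 units with pcDNA3.1 and 47.5, 56.3 and 44.1 units with pcDNA3.1-MEG3. On siRNA arrays the signals were 916, 899 and 902 units. No plasmid array overlapped with either the negative control or siRNA, an order that the choice of the gene favours, as for Nefl. The share of all genes with this order was not counted, so it is not read as a trait of these genes. Its scaled level with siRNA was at least 62.0-fold that of the negative control (log2 difference 6.03, SE 0.16, n = 2) and 20.5-fold that of the plasmid groups (4.35). With pcDNA3.1 it was at least 3.36-fold the negative control, and with pcDNA3.1-MEG3 at least 2.73-fold.

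Bace2 had 2 probes that did not give the same picture. Probe A_55_P2157033 read 6.93, 13.1 and 6.72 units with the negative control and 9.004, 10.8 and 9.52 units with pcDNA3.1-MEG3, none well above background. With pcDNA3.1 it read 30.4, 13.8 and 25.5 units for replicates 1, 2 and 3, and replicates 1 and 3 were well above background. With siRNA it read 334, 351 and 310 units. The siRNA arrays lay above the rest, at least 28.3-fold over the negative control (log2 difference 5.61, SE 0.35, n = 2) and at least 22.2-fold over the plasmid groups (4.85). The other probe, A_51_P481221, read 20.6, 25.3 and 17.1 units with siRNA, and only replicate 2 was well above background. Its 9 other signals, from 7.04 to 15.5 units, were all not well above background. The siRNA difference from the negative control was 1.67 on the log2 scale. It is no bound, since most siRNA signals of this probe were not well above background either. The second probe failed the filter on dim probes, so the Bace2 values rest on the first, and which transcript ends each probe reads was not checked.

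All 5 genes had every siRNA array above the 9 others, as did 13.5% of all genes with a value on every array, and the choice of genes fixed that outcome. The gap between the lowest siRNA array and the highest of the other arrays was 215-fold for Tspan7, 65.4-fold for Alox5, 16.2-fold for Tceal7, 14.4-fold for Nefl and 12.1-fold for Bace2. The rule set no limit of size. Nearest to the fitted difference of Bace2 from the negative control (5.61) were those of Dync1i1 (5.61) and Tecrl (5.57). Outside siRNA most Tspan7 and Bace2 signals were not well above background, so the genes are given no order by size of difference. With normexp background correction, tried after seeing the data, the differences from the negative control were smaller, from 2.81 for Bace2 to 6.03 for Tspan7 on the log2 scale, and no sign changed. The filter kept a gene if it was well above background on all 3 arrays of some group. Tspan7 and Bace2 passed through siRNA alone, Nefl and Tceal7 through siRNA and both plasmid groups, and Alox5 through all 4 groups.

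**Figure D2:**
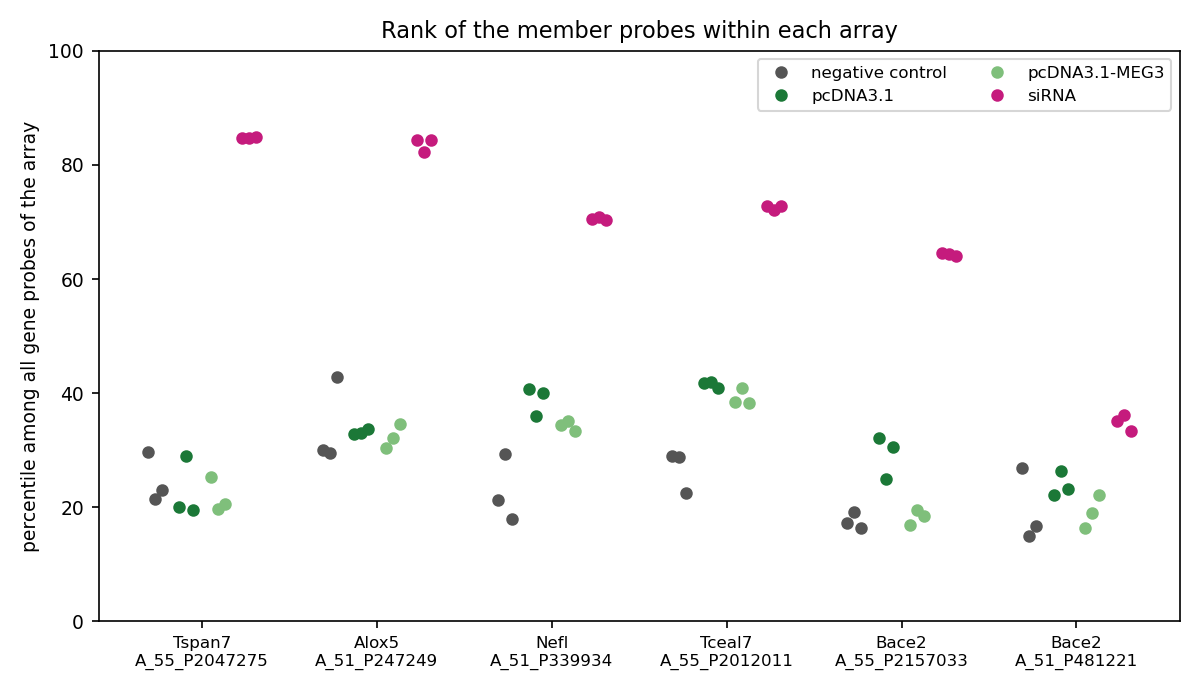
Percentile of each probe's signal among all gene probes of the same array, 3 points a group. Tspan7 was at 84.7 to 84.8 on siRNA arrays and at 19.5 to 29.6 elsewhere, and Bace2 probe A_51_P481221 stayed at 33.4 to 36.2 on siRNA arrays.

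Ranks within an array do not depend on how arrays are scaled. They come from the same signals that chose the genes, so higher ranks with siRNA were fixed by that choice and are only described. Tspan7 stood at the 84.7th to 84.8th percentile of the siRNA arrays and Alox5 at 82.2 to 84.4. On all other arrays Tspan7 was between 19.5 and 29.6, and Alox5 between 29.5 and 42.8. Nefl lay at 70.4 to 70.8 with siRNA, at 33.3 to 40.7 in the plasmid groups and at 17.9 to 29.3 in the negative control. Tceal7 lay at 72.1 to 72.8, 38.3 to 42.0 and 22.6 to 28.9 in the same order. Bace2 by probe A_55_P2157033 lay at 64.1 to 64.5 with siRNA, at 24.98 to 32.1 with pcDNA3.1 and no higher than 19.5 in the remaining groups.

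The comparison of pcDNA3.1-MEG3 with pcDNA3.1, which shared scans, was the only one whose arrays were not used to choose the genes. It was not fully independent of that choice. Its spread was pooled over all 4 groups, and Tspan7 and Bace2 passed the filter through siRNA alone. None of the 5 genes passed limma's moderated test at an adjusted p of 0.05, where 0.00814% of all genes tested did, or 2 of 24565. That share rests on the spread pooled over all 4 groups, since 1952 genes were called from the plasmid groups alone and 2408 when 1 negative control sample was left out, whichever it was, and none of the 5 genes passed in these fits. Bace2 was well above background on 2 of 3 pcDNA3.1 arrays and on 0 of 3 pcDNA3.1-MEG3 arrays. Since the brighter group also held a signal not well above background, no bound on the Bace2 fold is given. The fitted difference, largely from signals near background, was -1.14 on the log2 scale (SE 0.35, limma adjusted p = 0.380), with an unadjusted p under 0.05. It was -1.23 within the first scan, with 2 arrays a group, and -1.61 within the second, with 1 array a group. The second scan held replicate 3, which may be a repeat scan of replicate 1. The scans are thus not separate evidence for any of the 5 genes. With the 12 arrays taken as 12 samples, repeat scans included, Bace2 passed at -1.35 (limma adjusted p = 0.00972). The MEG3 label of that group is in doubt from the Meg3 probe, so no effect of MEG3 can be read from it.

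Tceal7 differed by -0.30 (SE 0.16, 95% interval -0.69 to 0.09, limma adjusted p = 0.569), and it was -0.31 within the first scan and -0.49 within the second. Nefl differed by -0.44 (SE 0.33, interval -1.25 to 0.37, limma adjusted p = 0.647), with -0.43 and -0.91 within the scans. For Alox5 the difference was -0.13 (SE 0.32, interval -0.92 to 0.65, limma adjusted p = 0.872), with -0.21 and -0.12. The intervals of these 3 differences all span 0. Tspan7 was well above background on only 1 of the 6 plasmid arrays, so its difference between the plasmid groups is not read. The sign of the Alox5 difference turned without pcDNA3.1 replicates 1 and 3 (0.04).

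The relatives of each gene, from lists of its family or pathway, were then set beside it in the siRNA contrast. Over all 24526 genes tested, 12.4% were called at a limma adjusted p under 0.05, with 7.77% higher and 4.66% lower, and the median difference was 0.06. Calls for these relatives rest on 2 samples a group with a spread pooled over 4 groups. Scan and group coincide here too, so a call shows a difference between these arrays. Of the called relatives and markers named below, only Tspan33, Hpgd, Nefm, Map2 and Myog stayed called with each plasmid group as 1 sample. With each plasmid group as 1 sample, 160 genes were called in place of 3047, and with normexp 1 gene was.

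Of 27 other tetraspanins kept, 4 rose and 1 fell, with a median difference of 0.07. Tspan33, a tetraspanin of the subgroup that binds the protease ADAM10, rose at least 8.86-fold (limma adjusted p = 0.00208) and Tspan13 at least 5.999-fold (0.0137). Both were well above background on all 3 siRNA arrays and on none of the other 9. They were thus kept through siRNA alone, which favours a rise in the count above. Tspan32 rose by 1.68 on the log2 scale and Tspan2 by 1.28, whereas Tspan11 fell by 1.16. Tspan6, the closest paralog of Tspan7, was detected on all 12 arrays and did not pass the test (0.28, SE 0.15, limma adjusted p = 0.298). The calls of Tspan2 and Tspan11 were lost when single samples were left out, among them any pcDNA3.1 or pcDNA3.1-MEG3 sample.

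Of 16 other kept genes of leukotriene synthesis and signalling, 0 rose and 1 fell (median 0.06). Alox5ap, the membrane protein that presents arachidonate to Alox5, was detected on all 12 arrays and differed by 0.15 (SE 0.13, limma adjusted p = 0.513). Gpx4, a glutathione peroxidase that reduces lipid peroxides, fell by 1.19 (adjusted p = 0.0366), a call lost when any plasmid or siRNA sample was left out. Of 19 prostaglandin pathway genes 2 rose and 0 fell (median 0.29). Hpgd, the enzyme that inactivates prostaglandins, rose 7.46-fold (limma adjusted p = 0.000533), and Ptger3, a prostaglandin E receptor, rose 1.74-fold (0.0418), a call lost without any plasmid or siRNA sample. Myeloid markers, the other cells known for Alox5, had a summed scaled level of 2.66 to 2.90 on siRNA arrays and 3.00 to 3.97 on the others. Of 8 kept myeloid markers, Csf1r rose and Lyz2 fell, calls that were lost without either pcDNA3.1-MEG3 sample.

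Of 13 other intermediate filament genes kept, 3 rose and 1 fell (median 0.04), and the neurofilament genes did not move together. Nefm, the medium neurofilament subunit, rose at least 6.20-fold (limma adjusted p = 0.00476) and was well above background on all 3 siRNA arrays and on none of the others. Nefm was thus kept through siRNA alone, which favours a rise. Nefh, the heavy subunit, fell at least 1.23-fold (adjusted p = 0.00681) and was detected only on the 3 negative control arrays. Nes, the nestin gene of progenitor cells, rose 2.09-fold, and Lmnb1, a lamin of the nuclear envelope, rose by 0.59 on the log2 scale. Both of these calls were lost when any plasmid sample was left out. Among 10 kept neuron markers 2 rose and 1 fell. Map2, a microtubule protein of dendrites, rose 10.8-fold and Tubb3, a neuronal tubulin, 3.90-fold, whereas Snap25, a synaptic fusion protein, fell 3.14-fold. Elavl3 and Uchl1 were detected on no array, and Stmn2 had no usable spot on 1 siRNA array. Over the 11 other neuron markers the summed scaled level was 4.87 to 5.00 on siRNA arrays and 4.10 to 4.63 on the others. Its part in the Nefl signal was not tested.

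In the Tceal and Bex family 3 of 8 other kept genes rose and 2 fell (median 0.26). Tceal5 rose at least 5.94-fold (limma adjusted p = 0.00616) and was detected on all plasmid arrays and on no negative control array. Tceal6 rose by 1.52 and Tceal1 by 0.64, while Tceal8 fell by 1.08. Tceal5 and Tceal6 are near-identical paralogs in mouse, so which of them each probe reads is uncertain. Bex1 was called lower, but it was detected only on negative control arrays and had no bound above 1. The calls of Tceal1, Tceal8 and Bex1 were lost when any plasmid sample was left out.

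None of 23 other kept secretases, secretase partners and substrates passed the test in either direction (median -0.04). Bace1, detected on all 12 arrays, differed by -0.02 (SE 0.17, limma adjusted p = 0.946). By contrast, 20 of 22 contractile genes rose and 0 fell, with a median of 3.85. Of the 8 myoblast markers 5 rose, 1 fell and 2 did not pass the test. Myog and Myod1, transcription factors of muscle differentiation, rose 11.04-fold and 4.89-fold, and Myf5, a factor of early myoblasts, fell by 2.86 on the log2 scale. The Myod1 call was lost without either pcDNA3.1-MEG3 sample. Their part in the signal of the 5 genes was not tested.

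**Figure D3:**
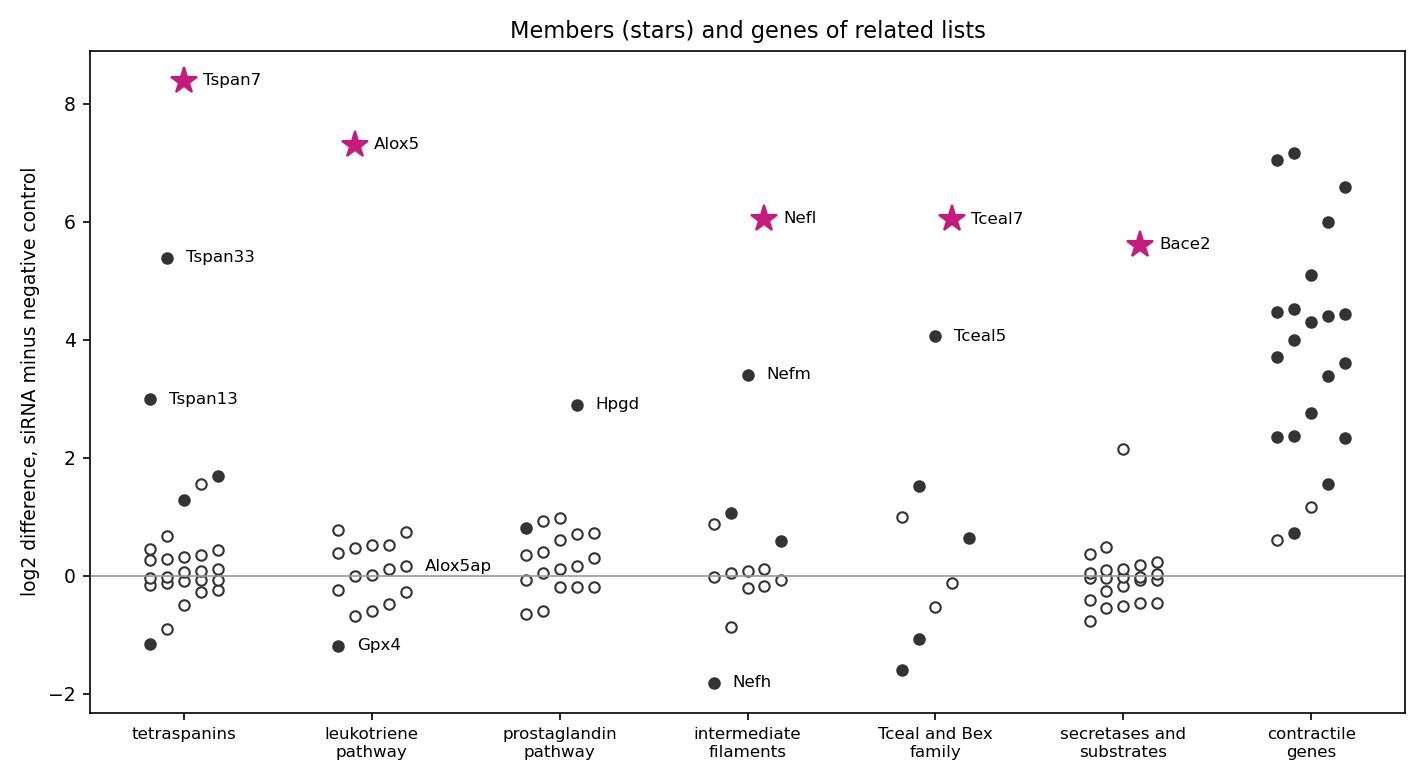
Log2 difference of siRNA minus negative control for the genes kept in 7 lists. Stars are the genes described here, filled circles passed limma at an adjusted p under 0.05 and open circles did not. Each star is above all other genes of its list, which the choice of genes by this same contrast favoured. Of the 22 contractile genes 20 were called higher.

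Against both plasmid groups 18.7% of 24523 genes were called, with 10.6% higher and 8.12% lower and a median of -0.11. This comparison shares the siRNA arrays with the one above. Without the 5 genes, 6 tetraspanins were higher and 3 lower of 27, and 4 leukotriene genes were higher and 2 lower of 16. Of 19 prostaglandin genes 5 were higher and 2 lower, and of 23 secretase genes 3 were higher and 1 lower. Of 13 intermediate filament genes 2 were higher and 0 lower, and of 8 Tceal and Bex genes 1 was higher and 2 lower.

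The profiles of the 5 genes were also set beside one another. Likeness was taken as the root mean square difference of log2 profiles centred on their own means, over 8 samples that share arrays and scans. Nefl and Tceal7 were nearest (0.25), followed by Nefl and Bace2 (0.44), Tceal7 and Bace2 (0.54) and Tspan7 and Alox5 (0.65). Every pair that crossed from Tspan7 or Alox5 to the other 3 genes was at 1.00 or more, up to 1.68 for Tspan7 and Tceal7. Profiles were centred and not rescaled, so a large part of this distance is the size of the siRNA step and not shape. That step from the negative control was 8.39 for Tspan7 and 7.30 for Alox5, and 5.61 to 6.05 for the other 3 genes. The values of Tspan7 and Bace2 outside siRNA are mostly near background.

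By the same measure over all kept genes, Alox5 lay nearest to Pdlim3 (0.22), which encodes a protein of the muscle Z-disc, then to Myh3 (0.43), the embryonic myosin heavy chain, and Vgll2 (0.45), a cofactor of TEAD factors in skeletal muscle. The same 3 genes were nearest to Tspan7, at 0.75, 0.98 and 0.68. Tceal7 lay nearest to Casq2 (0.27), which binds calcium in the sarcoplasmic reticulum, Myom3 (0.27), a protein of the M-band, and Dync1i1 (0.35), a dynein chain. Nefl shared Casq2 (0.30) and Myom3 (0.39), with Itga4 (0.50), an integrin subunit, as the next. Bace2 lay nearest to Itga4 (0.23), Tecrl (0.46) and Myom3 (0.47). Of the 9 arrays outside siRNA, Bace2 was well above background on 2, Tspan7 on 2, Vgll2 on 4, Itga4 on 1 and Tecrl on 0, so distances that involve them compare mostly the siRNA step and background. These genes were ranked by likeness alone, and the siRNA arrays behind every step were read in scans apart from the other groups. The measure keeps the size of the siRNA step, which chose the 5 genes. Near genes had steps of like size, such as 7.01 for Pdlim3 and 7.05 for Myh3 beside 7.30 for Alox5 against the negative control. Nearness is thus no independent sign that these genes vary together.

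**Figure D4:**
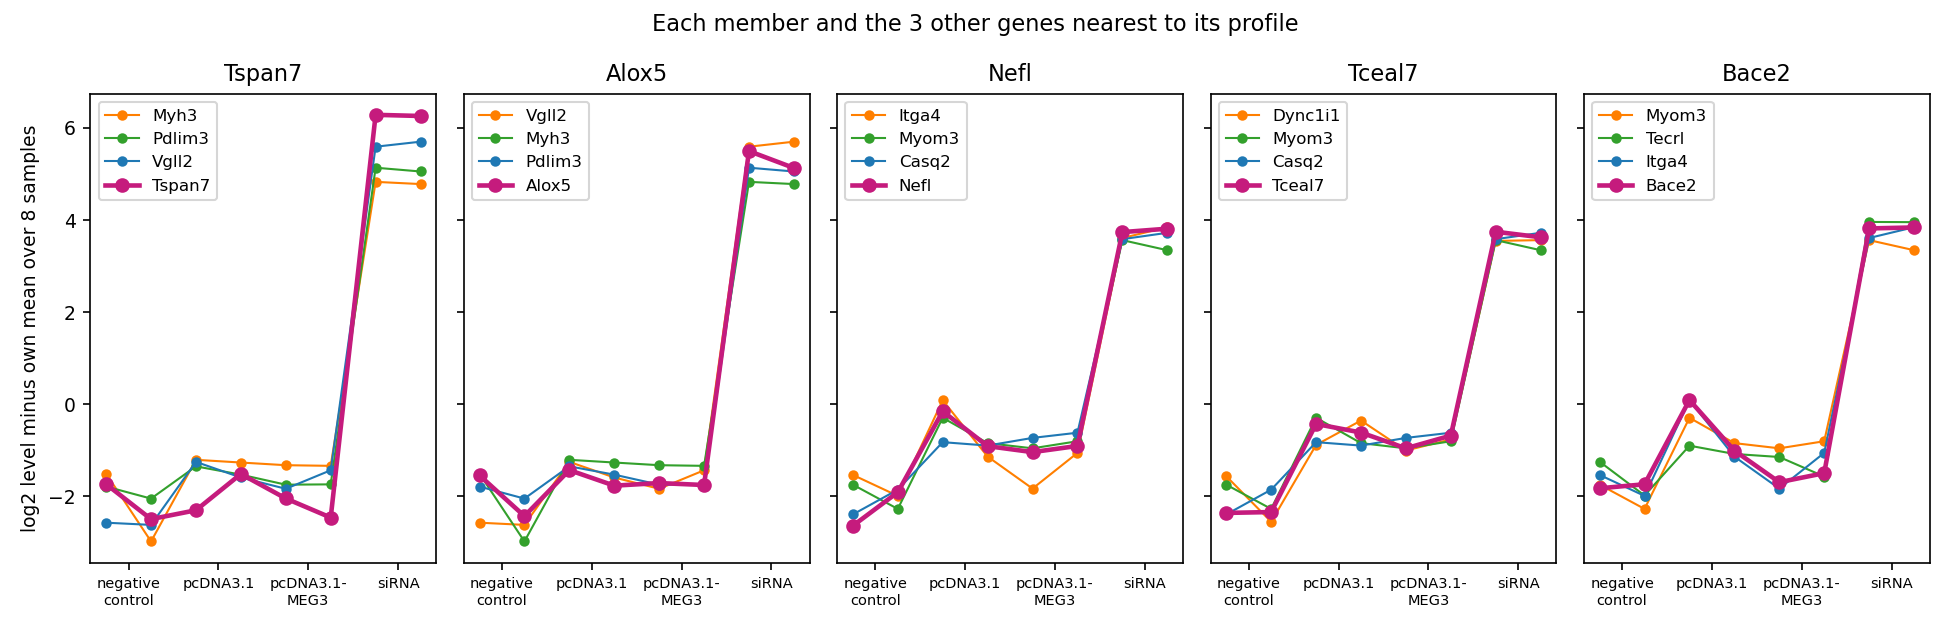
Log2 scaled level minus the gene's own mean over 8 samples, with 2 samples a group (replicates 1 and 3 averaged, then replicate 2), for each gene (thick line) and the 3 nearest other genes. The Tspan7 and Alox5 profiles overlap between groups outside siRNA, whereas Nefl and Tceal7 step up in the plasmid groups as well. How many other genes do so was not counted.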

How the data were processed

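Cy3-labelled RNA of C2C12 cells was measured on 12 one-colour Agilent mouse arrays. Per the file headers, spot intensity on a linear scale was extracted with Agilent Feature Extraction, which subtracts background and a spatial trend, and flag columns mark each spot that cleared its background. The series table that the authors deposited holds processed intensity values, and its scale and direction follow the scanner signal by rank, while its centring is unknown. Of 44397 spots per array, 1377 controls were left out and 0 were saturated. Outlying spots were dropped and spots of a probe averaged. RefSeq tables matched 27234 of 39429 probes to a symbol by accession.

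Signals were divided by each array's 75th percentile and taken to log2. Probes well above background on all 3 arrays of a group were kept (29607 probes, 24571 genes), with the probe brightest on average standing for a gene. Replicates 1 and 3 of each group differed by 0.113 to 0.903 of the noise between spots and were averaged. In pcDNA3.1, pcDNA3.1-MEG3 and siRNA they held the same slide position in different scans. In the negative control they held positions 2 and 4 in the same scan, so separate arrays were averaged there. Groups were fitted with limma 3.58.1 in R 4.3.3 on 8 samples, with Benjamini-Hochberg adjusted p over all genes tested, a threshold of 0.05 and 4 residual degrees of freedom. The fit was tested on simulated data. The number of arrays limits the precision.

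Genes were named by rule: the 5 genes with every probe, the brightest Meg3 probe, up to 4 other called genes of each list by size, and the paralogs Bace1, Tspan6, Nefm, Nefh, Tceal8 and Alox5ap. Tceal1, Bex1, Nes and Lmnb1 complete small counts. The 3 genes nearest in profile to each were also named. The genes, the lists and the tests were chosen with earlier results of these data known. Alternatives were 12 arrays as 12 samples, the compared groups alone, median centring, quantile normalisation, no filter, the series table, the replicate number as a block, leaving out each sample and other probes. Normexp correction and plasmid groups as 1 sample each were added after seeing the data.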

Additional observations from a re-analysis of the deposited data

How the results depend on the processing

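The number of genes called moved with the setting, while the 5 genes' siRNA minus negative control differences kept their sign under all alternatives. For siRNA against negative control, 3047 genes were called, with 9861 from 12 arrays as 12 samples, 1966 without the filter, 160 from the compared groups alone, 160 with each plasmid group as 1 sample, 1 with normexp and 1024 to 7454 when a sample was left out. The split of 1905 higher and 1142 lower became 1098 and 1570 under median centring (median of all genes 0.06 to -0.13). For pcDNA3.1-MEG3 against pcDNA3.1, where limma called 2 genes, 3015 were called from 12 arrays, 1952 from the compared groups alone, 0 with each plasmid group as 1 sample, 0 with normexp and 0 to 2408 when a sample was left out, with 9 under quantile normalisation and 10 from the series table. For pcDNA3.1 against negative control, 4408 became 12111, with 2 from plasmid groups as 1 sample, 101 with normexp and 525 to 9187 with a sample left out, and its 2776 higher and 1632 lower became 1039 and 4204 under median centring (median 0.22 to -0.23). For pcDNA3.1-MEG3 against negative control, 3470 became 11790, 5225 under median centring (743 higher and 4482 lower in place of 1848 and 1622, median 0.16 to -0.23), 2310 without the filter, 2 with plasmid groups as 1 sample, 134 with normexp and 360 to 9310 with a sample left out. For siRNA against both plasmid groups, 4586 became 12765, 193 with plasmid groups as 1 sample, 102 with normexp and 1643 to 9413 with a sample left out, and 2594 higher and 1992 lower became 4432 and 1216 under median centring (median -0.11 to 0.12). With the replicate number as a block, 1841, 1 and 2053 genes were called for siRNA against negative control, pcDNA3.1-MEG3 against pcDNA3.1 and pcDNA3.1-MEG3 against negative control. Deviations of same-numbered arrays correlated between -0.07 and 0.03 over 12 pairs, so the numbers were not taken to pair the arrays, and the block changed no call among the 5 genes. The siRNA minus negative control differences with normexp were 6.03 for Tspan7, 5.54 for Alox5, 3.96 for Tceal7, 3.69 for Nefl and 2.81 for Bace2. Median centring gave 5.85 for Tceal7 and 5.42 for Bace2, the authors' processed values 5.94 for Tceal7, and Bace2 probe A_51_P481221 gave 1.67. With a sample left out they ranged from 8.005 to 8.76 for Tspan7, 6.86 to 7.74 for Alox5, 5.68 to 6.41 for Nefl, 5.98 to 6.09 for Tceal7 and 5.56 to 5.65 for Bace2. For pcDNA3.1-MEG3 minus pcDNA3.1, leaving out a sample gave -0.74 to 0.049 for Tspan7, -0.30 to 0.035 for Alox5, -0.82 to -0.06 for Nefl, -0.44 to -0.16 for Tceal7 and -1.69 to -0.59 for Bace2. Within the second scan Tspan7 was at 0.038 and Tceal7 at -0.49, and 12 arrays as 12 samples took Bace2 to -1.35 (limma adjusted p = 0.00972). Signs also turned for Bace2 in pcDNA3.1-MEG3 minus negative control under median centring (-0.20), Alox5ap under median centring (-0.034), Nefh (0.38), Bex1 (0.44) and Lyz2 (0.37) with normexp, and Bace1 without negative control replicates 1 and 3 (0.16) or siRNA replicates 1 and 3 (0.05). Tspan33, Hpgd, Nefm, Map2 and Myog were called in 16 of 17 alternatives, all except normexp. Tspan13, Tspan32, Tceal5, Tceal6, Tubb3, Snap25, Nefh, Myf5 and Cdh15 were called in 14. Their calls were lost with normexp, with each plasmid group as 1 sample and from the compared groups alone. Where leaving out a sample left 1 in a group, that sample was assumed to vary like the other groups. Normexp on the mean signal was planned and not run, since no mean signal column was present. The normexp setting reported here used the median signal with an offset of 50. The cause of these changes was not tested. Tspan7 and Bace2 outside siRNA were mostly not well above background, so their values between the plasmid groups are not read as changes.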

Other observations

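The measured protein-coding genes next to each of the 5 genes in the RefSeq order were looked up after the values had been seen, and they are given for siRNA against negative control. Beside Nefl, Nefm rose by 3.40 on the log2 scale (limma adjusted p = 0.00476), and Dock5 on the other side differed by 0.62 (0.0677). Beside Tspan7, Mid1ip1 differed by 0.34 (limma adjusted p = 0.389), and Otc was detected on no array. Beside Tceal7, Tceal9 differed by -0.12 (limma adjusted p = 0.652), and Bex1 was called lower from signals detected only with the negative control. Beside Bace2, Fam3b differed by -0.27 (limma adjusted p = 0.765), and Dscam was detected on no array. Beside Alox5, Marchf8 differed by -0.12 and Olfr211 by 0.34 (limma adjusted p = 0.783 and 0.718).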
